A study of Mus musculus with 24 samples.

Results

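miR-103-3p and miR-107-3p are a pair of nearly identical microRNAs cut from the 3p arms of 3 hairpin precursors. They were followed here through the 2 mature rows mmu-miR-103-3p and mmu-miR-107-3p, of 1915 mature rows, and the 3 hairpin rows mmu-mir-103-1, mmu-mir-103-2 and mmu-mir-107, of 1186 hairpin rows, in all 12 deposited columns. The pair was selected on its low count in acetaminophen-treated against control hepatocytes, so that its hepatocyte values are a description. It was chosen with earlier results of these data known, so its liver values are a description too.

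The 24 samples of mouse small RNA came from 4 materials: exosomes from serum, exosomes from the culture medium of primary hepatocytes, the cultured primary hepatocytes, and liver. Each material had 3 treatments, namely acetaminophen plus granulocyte colony-stimulating factor (G-CSF), acetaminophen alone, and untreated control. For serum and liver the labelled dose of acetaminophen was 500 mg/kg, and that of G-CSF 100 µg/kg. For hepatocytes and their exosomes acetaminophen was at 20 mM, and G-CSF at 1 µg/ml. In overdose acetaminophen kills hepatocytes; G-CSF releases granulocytes from the bone marrow. The labels give no strain, age, genotype, exposure time or count of animals or cultures per sample. The PGM and Proton libraries of a condition share 1 deposited column, so that each condition has 1 value, there are no replicates, and a ratio of 2 columns compares those libraries and not the conditions. For both treated serum columns the sample titles and column names give the opposite G-CSF assignment from the treatment characteristic, which is followed here. Liver and cell RNA are bulk, so fewer cells of a type and less RNA per cell cannot be told apart.

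MicroRNAs are cut from hairpins into strands of about the length printed here, and the strand loaded into Argonaute pairs with messenger RNAs mainly through its seed, bases 2 to 8. miR-103 and miR-107 lie in introns of pantothenate kinase genes, whose enzymes start coenzyme A synthesis. In mouse liver and fat the pair is known to lower insulin sensitivity by acting on caveolin-1, a protein that stabilises the insulin receptor, and it is also known to target Dicer. No insulin readout was measured here, so the insulin link is background that these counts cannot check.

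The mature sequences are shown because their similarity sets what the counts can tell apart. Capitals mark the seed, and the sequences are those of RefSeq on GRCm38.p6.
mmu-miR-103-3p: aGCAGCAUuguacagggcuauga
mmu-miR-107-3p: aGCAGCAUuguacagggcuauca
The strands are 23 bases long and identical at 22 of them. Counted from base 1 at the 5′ end, the substitution between miR-103-3p and miR-107-3p is G22C, so that a read ending before that base belongs equally to both. Among 1679 mature names in the RefSeq table, these 2 were the ones with that seed.

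The hairpins are shown because their arms outside the 3p strand differ. Capitals mark the 3p strand.
mmu-mir-103-2: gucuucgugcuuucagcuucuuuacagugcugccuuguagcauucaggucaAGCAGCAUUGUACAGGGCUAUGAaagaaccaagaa
mmu-mir-103-1: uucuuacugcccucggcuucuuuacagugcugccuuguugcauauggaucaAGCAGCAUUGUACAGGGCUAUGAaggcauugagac
mmu-mir-107: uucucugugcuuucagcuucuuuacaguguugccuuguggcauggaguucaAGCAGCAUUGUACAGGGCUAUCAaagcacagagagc
In GRCm38 coordinates, mir-103-2 lies at chr2:131288052-131288137 on the plus strand, in intron 7 of a 9-exon transcript of Pank2. mir-103-1 lies at chr11:35782396-35782481 on the plus strand, in intron 5 of a 7-exon transcript of Pank3. mir-107 lies at chr19:34820687-34820773 on the minus strand, in intron 5 of a 7-exon transcript of Pank1. Each is on the strand of its host gene, and 0 annotated host transcripts have an exon there. Aligned, mir-103-1 and mir-103-2 shared 69 bases, mir-103-1 and mir-107 shared 70, and mir-103-2 and mir-107 shared 73, in hairpins of 86, 86 and 87 bases. The longest run common to mir-103-1 and mir-103-2 was 27 bases, and to either of them and mir-107 it was 24 bases.

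The 2 mature rows held the same value in all 12 columns. The rows of mir-103-1, mir-103-2 and mir-107 were equal within 0.001 counts in 7 columns, of which 3 held 0 counts, and in the other 5 they differed by at most 8.73 counts. In 2 of those 5, both exosome columns with acetaminophen plus G-CSF, the gap was 1 count of 5 and 1 count of 1. That largest gap fell in control liver, where the hairpins had 29732.48, 29733.48 and 29724.75 counts for mir-103-1, mir-103-2 and mir-107. It was 0.00979% of their sum. The hairpin table therefore did not separate the 3 Pank-intron loci, and neither table separated miR-103-3p from miR-107-3p. As the hairpins differ outside the 3p strand, rows this equal are not read here as a measure of precursors apart from the mature strand. Of 257 mature rows with at least 10 counts over the 12 columns, 12 matched another row within 0.001 throughout. Of all 982 rows with a count, most of them low, 523 did. Values below are the sum of both mature rows (the pair) or of the 3 hairpins.

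Column totals ran between 47 and 49330 mature counts and between 167.35 and 1307522.78 hairpin counts, lowest in hepatocyte exosomes and highest in control liver in both tables. miR-122-5p, the microRNA most typical of hepatocytes, took 9.96%, 17.3% and 14.1% of the mature counts in hepatocytes with acetaminophen plus G-CSF, acetaminophen and control, and 12.7%, 40.1% and 23.6% in liver in the same order.

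In hepatocytes the pair was abundant in the control column and low in both treated columns. It had 11 counts with acetaminophen plus G-CSF, 10 with acetaminophen and 473 in control. As shares of the column with 95% Wilson intervals these were 0.247% (0.138 to 0.442), 0.188% (0.102 to 0.345) and 1.77% (1.62 to 1.93), and intervals here cover counting error only. The intervals of the 2 treated columns overlapped, and both lay far below that of control. By summed count the pair ranked 38th of 163, 45th of 177 and 10th of 284 mature microRNAs detected in these columns. The 3 hairpins together had 212 counts with acetaminophen plus G-CSF, 455.75 with acetaminophen and 20257.85 in control, or 0.152%, 0.254% and 2.42% of the column.

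In liver the acetaminophen column was low and the acetaminophen plus G-CSF column lay between it and control. The acetaminophen column was also the shallowest of liver, with 19695 mature and 111316 hairpin counts in all. Acetaminophen plus G-CSF had 43699 and 1095868, and control 49330 and 1307523. The pair had 1217 counts with acetaminophen plus G-CSF, 130 with acetaminophen and 2189.50 in control. The shares were 2.79% (2.63 to 2.94), 0.660% (0.556 to 0.783) and 4.44% (4.26 to 4.62), with no overlap among the intervals. The pair ranked 5th, 34th and 3rd. The hairpins gave the same order, with 43882.35 counts (4.004%) for acetaminophen plus G-CSF, 1677.75 (1.51%) for acetaminophen and 89190.72 (6.82%) for control.

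In serum exosomes the pair had counts in the control column alone. It had 0 counts with acetaminophen plus G-CSF and 0 with acetaminophen, which allow shares of up to 0.434% and 0.688% (a floor of 3 counts), against 18 counts in control, a share of 0.276% (0.175 to 0.436). With the leading microRNAs left out of the total, the control share was 0.644%. By column totals the exact interval of the ratio to control ran from 0 to 2.14 with acetaminophen plus G-CSF and from 0 to 3.40 with acetaminophen, both including equality, so no difference in the mature pair was detectable at this depth. The hairpins had 5 counts with acetaminophen plus G-CSF, 0 with acetaminophen and 741.75 in control. The first and last of these are 0.124% and 0.409% of their columns, a ratio of 0.303 (0.0982 to 0.711) by column totals, below equality but resting on 5 counts. With the serum groups taken from the titles, the 5 hairpin counts would belong to acetaminophen alone.

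In exosomes of hepatocytes the mature pair had 0 counts in all 3 columns, and 1 count of mir-103-1 with acetaminophen plus G-CSF was the sole hairpin count. The 0 mature counts allow shares of up to 6.38% with acetaminophen plus G-CSF, 3.30% with acetaminophen and 0.896% in control. The pair's share of control hepatocytes, 1.77%, is above that control limit and below both limits of the treated exosome columns.

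**Figure D1:**
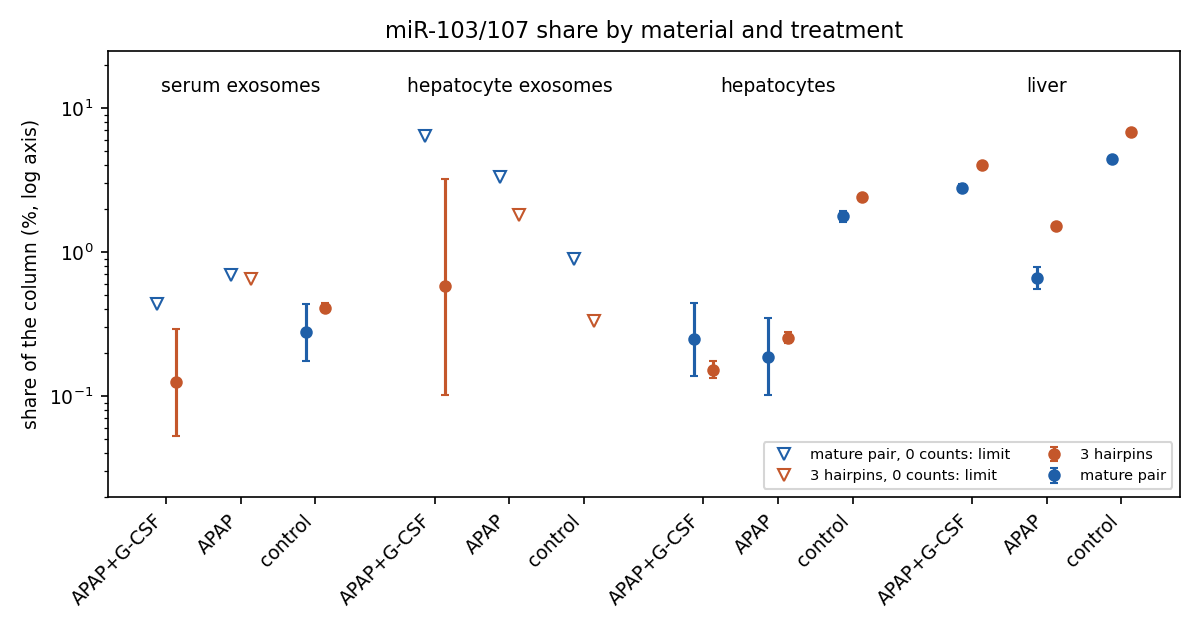
Share of each column (percent, log axis) taken by the mature pair (blue) and the 3 hairpins (orange) in the 12 columns, with 95% Wilson intervals as bars. Open triangles are the shares that 0 counts allow. Control liver is highest at 4.44% and 6.82%, and both treated hepatocyte columns lie near 0.2%.

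Ordered by mature share, control liver came first, then acetaminophen plus G-CSF liver, control hepatocytes and acetaminophen liver, each with an interval clear of the next. That order holds for shares of the whole column: with miR-122-5p, miR-30c-5p, miR-21a-5p and miR-21b left out of the total, control hepatocytes (3.75%) exceeded acetaminophen plus G-CSF liver (3.43%). Control serum exosomes (0.276%), acetaminophen plus G-CSF hepatocytes (0.247%) and acetaminophen hepatocytes (0.188%) followed with overlapping intervals, and their order is not resolved.

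The opposite arms were scarcely sequenced. miR-103-1-5p, miR-103-2-5p and miR-107-5p, the 5p strands of the same hairpins, summed to 3 counts in liver with acetaminophen plus G-CSF, 1 with acetaminophen and 1 in control, and to 0 in the other 9 columns. The 3p strand was thus the counted one, as is known for this family.

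For comparisons within hepatocytes and within liver, counts were scaled by trimmed mean of M values (TMM) factors. A microRNA was called when 1 column had at least 10 counts, the scaled counts differed 2-fold or more, and the ratio's exact conditional 95% interval excluded equality. With acetaminophen against control in hepatocytes the pair's ratio was 0.111 (0.0530 to 0.206), a log2 fold of -3.17. That ratio is the contrast on which the pair was selected. Of 100 mature microRNAs measured, 53 were called, which is 53%. The hairpins were at a ratio of 0.0858 (0.0780 to 0.0942), log2 -3.54, where 62.3% of 302 hairpins were called.

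With acetaminophen plus G-CSF against control, the same control column gave a ratio of 0.156 (0.0776 to 0.282), log2 -2.68, and 52% of 100 mature microRNAs were called. The hairpins stood at 0.0563 (0.0490 to 0.0645), log2 -4.15, with 59.7% of 290 called. With acetaminophen plus G-CSF against acetaminophen in hepatocytes, the pair had a ratio of 1.41 (0.542 to 3.69), and its interval included equality. Its 11 and 10 counts could not resolve a change of that size. Here 27.7% of 47 mature microRNAs were called. The hairpins had a ratio of 0.657 (0.555 to 0.774), log2 -0.61, an interval below equality but a difference under 2-fold, and 22.2% of 230 hairpins were called.

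In liver the pair was lower with acetaminophen than in control, at a ratio of 0.166 (0.138 to 0.198), log2 -2.59. This ratio too is a description, as the pair was chosen with earlier results of these data known. A call was common in that comparison, made for 50.6% of 160 mature microRNAs. The hairpins were at a ratio of 0.197 (0.188 to 0.207), log2 -2.34, where 36.1% of 432 were called. Acetaminophen plus G-CSF against control gave the pair 0.564 (0.525 to 0.605), log2 -0.83, and the hairpins 0.547 (0.541 to 0.553), log2 -0.87. Neither reached 2-fold, while 28.7% of 171 mature microRNAs and 40.4% of 458 hairpins were called. When miR-122-5p, miR-30c-5p, miR-21a-5p and miR-21b were left out of the scaling, the pair's ratio in that comparison became 0.493 and passed the 2-fold limit.

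The pair was higher in liver with acetaminophen plus G-CSF than with acetaminophen alone, at a ratio of 3.39 (2.83 to 4.09), log2 1.76, and 30.2% of 162 mature microRNAs were called. The hairpins were at 2.78 (2.64 to 2.91), log2 1.47, and 31.4% of 379 were called. The 3 liver ratios share columns pairwise and are not separate observations.

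**Figure D2:**
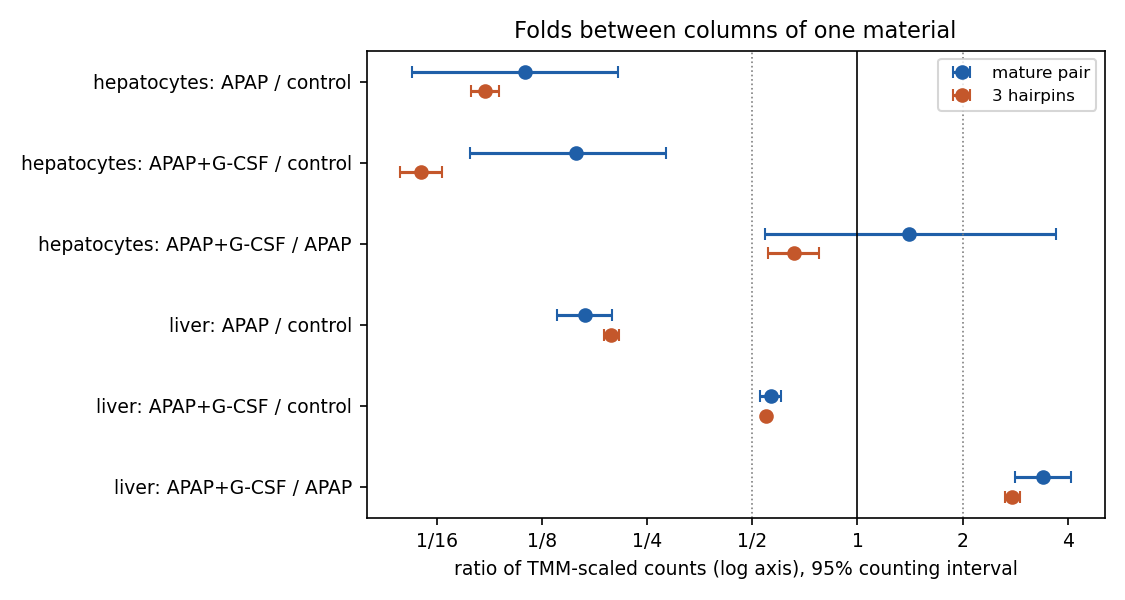
Ratios of TMM-scaled counts between columns of 1 material (log axis), for the mature pair (blue) and the 3 hairpins (orange), with exact 95% intervals. Dotted lines mark 2-fold. Both measures lie below 1/4 in acetaminophen against control in hepatocytes and in liver, and at 3.39 and 2.78 in acetaminophen plus G-CSF against acetaminophen in liver.

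The scaling moved every microRNA of a comparison together. Over the scalings tried, the median log2 fold of all measured mature microRNAs moved by up to 0.53 with DESeq2 size factors (acetaminophen plus G-CSF against control in hepatocytes) and by -0.57 with no low-count filter (acetaminophen against control in hepatocytes). Relative to that median, the pair's log2 fold was -2.70 for acetaminophen against control, -2.09 for acetaminophen plus G-CSF against control and 0.61 for acetaminophen plus G-CSF against acetaminophen in hepatocytes. In liver these differences were -2.34, -0.78 and 1.47 in the same order. The split of calls over all features also moved with the scaling. For acetaminophen plus G-CSF against acetaminophen in liver, 28 were higher and 21 lower, against 44 and 15 with column totals, 43 and 15 with no low-count filter, 23 and 30 with DESeq2 size factors and 20 and 33 with leading microRNAs left out. For acetaminophen plus G-CSF against control in liver, 27 were higher and 22 lower, against 29 and 15 with column totals and 23 and 33 with leading microRNAs left out. For acetaminophen against control in liver, 37 were higher and 44 lower, against 27 and 50 with column totals and 25 and 54 with no filter. In hepatocytes 26 were higher and 27 lower with acetaminophen against control, against 30 and 20 with DESeq2 size factors and 17 and 46 with no filter. With acetaminophen plus G-CSF against control they were 23 and 29, against 27 and 18 with DESeq2 size factors. Among hairpins of hepatocytes 91 were higher and 97 lower with acetaminophen against control, against 78 and 142 with no filter. For acetaminophen plus G-CSF against control 79 hairpins were higher and 94 lower, against 66 and 132 with no filter.

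The number of hairpin counts per mature count shows how the 2 tables relate. It was 36.1, 12.9 and 40.7 for the members in liver with acetaminophen plus G-CSF, acetaminophen and control, against 25.1, 5.65 and 26.5 for the whole tables. In hepatocytes it was 19.3, 45.6 and 42.8 for the members in the same order, against 31.3, 33.7 and 31.4 for the whole tables. The members exceeded the tables in all detected columns except acetaminophen plus G-CSF hepatocytes. In the acetaminophen liver column both were low.

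**Figure D3:**
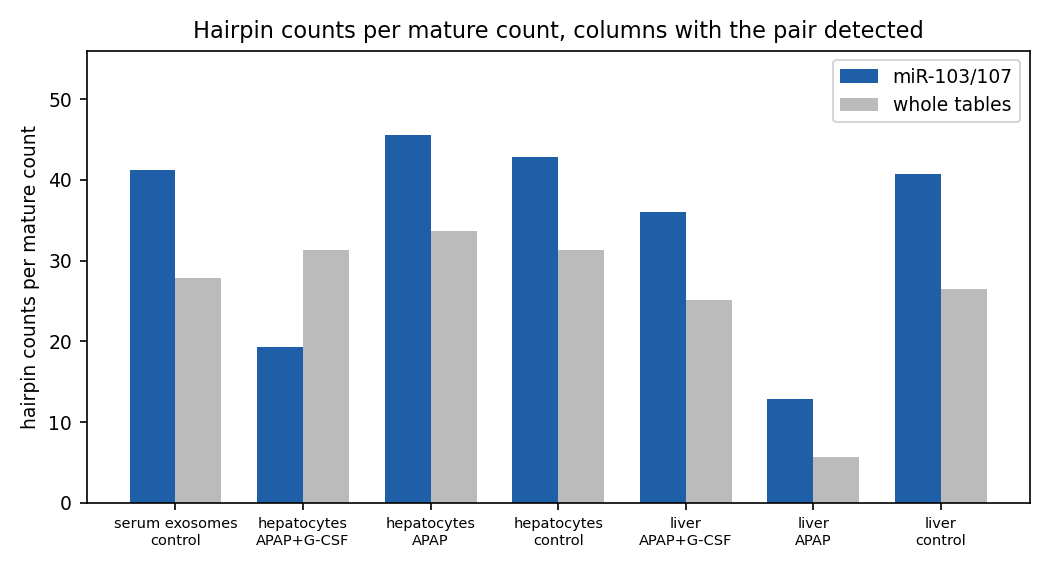
Hairpin counts per mature count in the 7 columns with a pair count above 0, for the miR-103 and miR-107 members (blue) and for all rows of both tables (grey). The acetaminophen liver column is lowest in both, at 12.9 for the members and 5.65 for the tables.

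Markers of other cell types were read beside these values, each list as its summed share of the column. In liver the 4 stellate and mesenchymal markers (miR-199a-3p, miR-199a-5p, miR-214-3p, miR-145a-5p), all detected, took 1.91% with acetaminophen plus G-CSF, 0.990% with acetaminophen and 2.12% in control. That sum was carried by miR-145a-5p, with 717, 140 and 896 counts in that order. miR-199a-3p had 14.5, 24.5 and 19.5, and with acetaminophen against control it was called higher at 3.52 (1.78 to 6.41) while miR-145a-5p was called lower at 0.437 (0.363 to 0.523). The 5 erythroid markers, including miR-451a, took 1.13%, 6.53% and 0.209% in that order. The 4 hepatocyte markers took 14.9%, 42.2% and 27.4%, mostly as miR-122-5p. Against control, acetaminophen gave the hepatocyte marker miR-194-5p a ratio of 0.481 (0.414 to 0.558), called lower, miR-192-5p 0.734 (0.611 to 0.878), and miR-148a-3p 2.47 (1.58 to 3.90), called higher. With DESeq2 size factors, or with leading microRNAs left out of the scaling, 2 hepatocyte markers were higher and 0 lower. The 4 leukocyte markers took 0.459%, 0.642% and 0.176%, and their patterns differed. In the same order, miR-223-3p had 141.75, 50.5 and 29 counts and miR-142a-3p had 13, 53 and 15. miR-150-5p had 46, 18 and 41, and miR-142a-5p had 0, 5 and 2. The 2 endothelial markers took 2.03%, 2.49% and 2.89%, mostly as miR-126a-3p. miR-126a-5p had 43, 87 and 61 counts, called higher with acetaminophen against control at 3.99 (2.85 to 5.63) and lower with acetaminophen plus G-CSF against acetaminophen at 0.179 (0.121 to 0.261). The part of these cell types in the pair's liver values was not tested. In hepatocytes the erythroid markers had 0, 1 and 1 counts with acetaminophen plus G-CSF, acetaminophen and control, the leukocyte markers 1, 0 and 1, and the stellate and mesenchymal markers at most 0.109% of a column. The hepatocyte markers took 14.0%, 26.9% and 18.5%, and the endothelial markers 1.24%, 1.76% and 0.333%.

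Hepatocytes and liver were also set against each other with edgeR's quasi-likelihood test over 6 columns, in which the 3 treatments stand in for replicates. miR-103-3p was at a log2 fold of -1.26 ± 0.91 (SE) in hepatocytes relative to liver, with an adjusted p of 0.316, and miR-107-3p had identical values. mir-107 was at -1.97 ± 0.98 (SE), with an adjusted p of 0.243. The 6 columns include the hepatocyte columns on which the pair was selected. Neither passed the threshold of 0.05, which 12.3% of 114 mature microRNAs and 4.58% of 284 hairpins did. Without the control columns, mir-107 had an edgeR adjusted p of 0.0117, in a fit where 34.8% of 250 hairpins passed and where the low acetaminophen column that selected the pair weighs more, so that p supports nothing about the pair.

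AGCAGCA, read on the mature strand, begins at base 1 in the pair and at base 2 in 10 other RefSeq names, together 0.715% of the 1679. Those names include the group of miR-15, miR-16 and miR-195, which is known to restrain the cell cycle. The shift of 1 base is visible when strands are set beside each other, with the seed, bases 2 to 8, in capitals. It is AGCAGCA in miR-15a-5p and miR-16-5p and AGCAGCG in miR-503-5p.
mmu-miR-15a-5p: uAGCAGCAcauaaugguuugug
mmu-miR-16-5p: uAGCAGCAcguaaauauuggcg
mmu-miR-503-5p: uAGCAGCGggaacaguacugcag
The list examined held 9 members and was not the full set of names with the motif, as miR-6342, miR-6353 and miR-6419 were not in it. Of the 9, miR-503-5p departs from the motif at its last base. The seed of miR-497b, ACCACAG, does not hold the motif. Several members are alike along their whole length, so their rows may share reads as the pair's do. With acetaminophen against control in liver, 8 members were measured and 0 were called in either direction, beside 50.6% called over all 160 measured microRNAs, with a median log2 fold of -0.09 against -0.25 over all measured microRNAs; its sign turned with DESeq2 size factors (0.08) and with leading microRNAs left out (0.01). miR-16-5p had 562 counts with acetaminophen plus G-CSF, 275 with acetaminophen and 838 in control liver, and its ratio for acetaminophen against control was 0.920 (0.799 to 1.05). miR-195a-5p was at 0.952 (0.818 to 1.10). Both intervals lie far from the pair's 0.138 to 0.198.

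In hepatocytes 6 members of the group were measured with acetaminophen against control, of which 2 were higher and 1 lower, a share near the 53% called over all 100, with a median of -0.11 against -0.47 over all, which turned to 0.26 with DESeq2 size factors and to 0.17 with leading microRNAs left out. miR-15a-5p and miR-15b-5p were higher, each with 10 counts against 20 in the larger control library, a ratio of 2.63 (1.10 to 5.89), and neither call held with no low-count filter. miR-503-5p was lower, with 1 count against 78, a ratio of 0.0675 (0.00169 to 0.387). miR-16-5p was at 0.984 (0.756 to 1.27), miR-195a-5p at 0.873 (0.637 to 1.18), and miR-322-5p, with 1 count against 10, at 0.526 (0.0121 to 3.70). miR-195b, miR-497a-5p and miR-497b were too low there to be measured. With acetaminophen plus G-CSF against control, 2 were higher and 3 lower of 6 (52% were called over all 100), and miR-16-5p (0.301, interval 0.182 to 0.497) and miR-195a-5p (0.252, interval 0.134 to 0.466) were then among those lower. Against acetaminophen alone both were lower again and 0 of 4 were higher, where 27.7% were called over all.

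In liver with acetaminophen plus G-CSF, miR-322-5p was the 1 member of 8 lower than in control, on 0.50 against 12 counts, and with leading microRNAs left out of the scaling 2 were lower. miR-497a-5p was the 1 of 6 lower than with acetaminophen, at a ratio of 0.285 (0.117 to 0.675). Over all microRNAs 28.7% and 30.2% were called in these comparisons. The list medians were -0.72 against control, beside -0.05 over all, and -0.41 against acetaminophen, beside 0.29 over all. The median against acetaminophen moved between -0.09 with column totals and -0.69 with leading microRNAs left out.

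The second list held 12 other microRNAs with known links to insulin or glucose, chosen with earlier results of these data known. Rows of miR-26a-5p and miR-26b-5p, and of miR-29a-3p and miR-29c-3p, were close in several columns. They may share reads, so counts of members in this list are not counts of separate observations. With acetaminophen against control in liver, 10 were measured, of which 4 were higher and 2 lower, a share near the 50.6% called over all. Their median log2 fold was 0.52 beside -0.25 over all, and it moved between 0.26 with no low-count filter and 0.69 with DESeq2 size factors; with no filter 3 were lower. The higher ones were miR-29b-3p at 8.90 (6.14 to 13.2), miR-802-5p at 5.83 (2.82 to 12.7), miR-143-3p at 5.46 (4.17 to 7.21) and miR-29c-3p at 2.45 (2.09 to 2.87). miR-802-5p and miR-143-3p are known to rise in obese mouse liver and to impair insulin action there. The lower ones were miR-34a-5p, a p53 target, at 0.316 (0.206 to 0.468), and miR-130a-3p at 0.361 (0.264 to 0.485). miR-29a-3p, miR-26a-5p, miR-26b-5p and miR-181a-5p were not called, and miR-33-5p and miR-375-3p were too low to be measured. The pair's ratio of 0.166 was lower than that of any measured member of either list in this comparison.

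miR-34a-5p, like the pair, was lowest in the acetaminophen liver column. It had 321 counts with acetaminophen plus G-CSF, 28 with acetaminophen and 248 in control. Unlike the pair at 0.564, it stood above control with acetaminophen plus G-CSF, at a ratio of 1.31 (1.11 to 1.56), log2 0.39. Leaving leading microRNAs out of the scaling moved log2 folds of that comparison by -0.19, enough for this interval to include equality. miR-34a-5p was higher with acetaminophen plus G-CSF than with acetaminophen alone, at a ratio of 4.15 (2.82 to 6.35), and was the 1 member of 10 to be so, while miR-143-3p, miR-29b-3p and miR-802-5p were lower. With column totals, or with no low-count filter, 1 rather than 3 was lower. Over all, 30.2% were called in that comparison. Against control, acetaminophen plus G-CSF left 2 of 10 higher (miR-29b-3p and miR-143-3p) and 0 lower, or 1 lower with DESeq2 size factors or with leading microRNAs left out, where 28.7% were called over all.

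In hepatocytes with acetaminophen against control, 7 of the 12 were measured and 3 were called, beside 53% over all. miR-130a-3p was higher at 6.44 (4.79 to 8.68) and miR-29a-3p at 3.86 (2.41 to 6.06), and miR-34a-5p was lower at 0.251 (0.0797 to 0.604), on 5 counts against 105. With DESeq2 size factors 3 rather than 2 were higher, and with no low-count filter 2 rather than 1 were lower. miR-130a-3p was thus called higher in hepatocytes and lower in liver, and the difference between the materials was not tested. With acetaminophen plus G-CSF against control, miR-130a-3p, miR-29c-3p and miR-29a-3p were higher and miR-34a-5p was lower, of 7, where 52% were called over all. That miR-34a-5p call rested on 1 count against 105. With DESeq2 size factors 4 were higher, and with no low-count filter 3 were lower. Against acetaminophen alone the 3 miR-29 members were higher, with ratios between 2.25 and 2.67, and 0 of 6 were lower, where 27.7% were called over all.

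**Figure D4:**
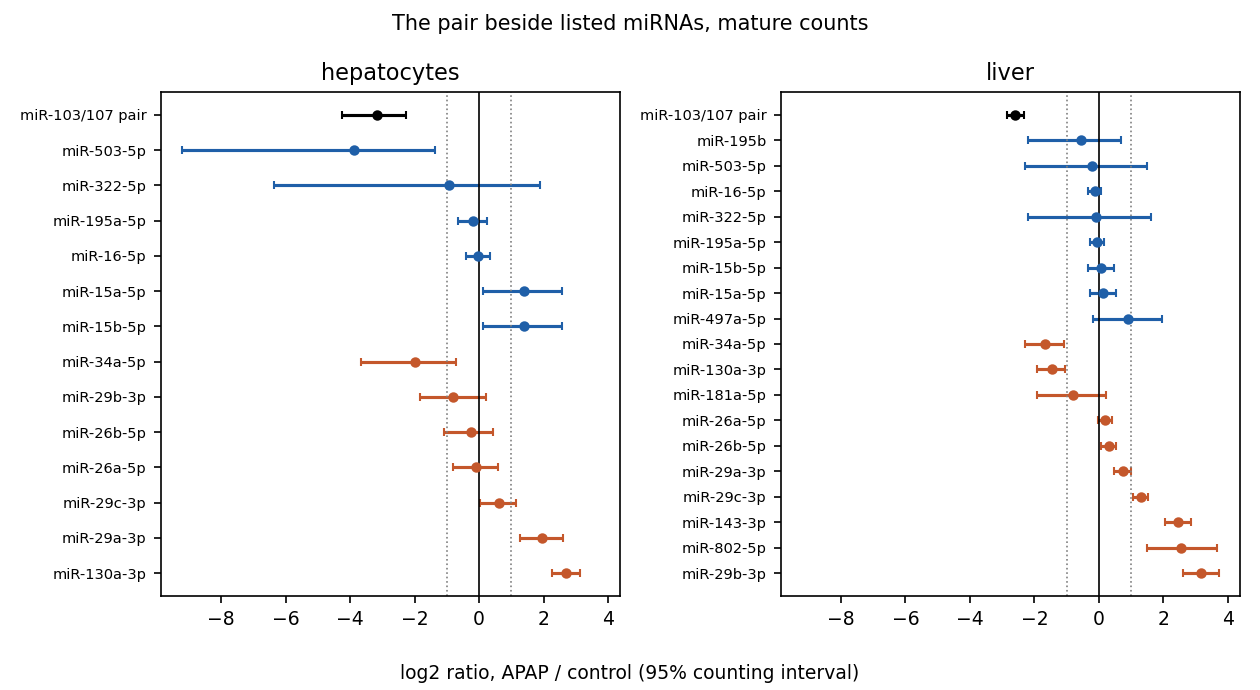
log2 ratios of acetaminophen against control with exact 95% intervals for the pair (black), the AGCAGCA group (blue) and the insulin- and glucose-linked list (orange), in hepatocytes and in liver; dotted lines mark 2-fold. In liver the pair at -2.59 lies left of all listed microRNAs, and in hepatocytes miR-503-5p, on 1 count, lies further left.

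The profiles most like the pair were sought over the 6 hepatocyte and liver columns, by Pearson's r of log2(TMM-scaled CPM + 1). Among 110 mature microRNAs the leading ones were miR-23b-3p (0.957), miR-324-5p (0.937), miR-23a-3p (0.936), miR-31-5p (0.900) and miR-151-5p (0.895). Among 278 hairpins they were mir-31 (0.986), mir-23a (0.985), mir-23b (0.985), mir-28a (0.973) and mir-324 (0.971). The 6 points share materials, treatments and scaling, so the r values only rank profiles. The scale of the changes differed along the list. mir-31 had 1195, 2056 and 32167 CPM in hepatocytes with acetaminophen plus G-CSF, acetaminophen and control, and 24342, 4686 and 24550 in liver in that order. The 3 hairpins of miR-103 and miR-107 together had 1987, 3248 and 37345 in hepatocytes and 31816, 9853 and 52125 in liver. mir-23a and mir-23b moved over a smaller range, between 877 and 5630 CPM for mir-23a. Their values were close in all 6 columns, and miR-23a-3p and miR-23b-3p were both at 4771.5 CPM in control hepatocytes. These rows may share reads and so be 1 profile listed under 2 names. By Spearman's rank correlation 1 of the 5 mature names was the same, and with a pseudocount of 10 it was 3 of 5.

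**Figure D5:**
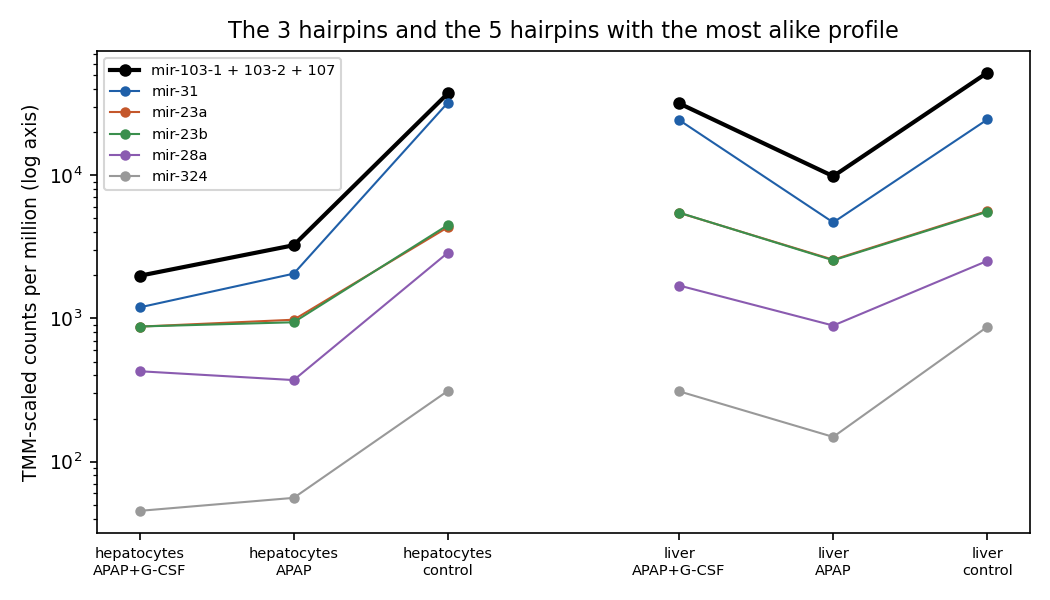
TMM-scaled CPM (log axis) of the 3 summed hairpins (black) and the 5 hairpins with the most alike profile in the 6 hepatocyte and liver columns. Scaling factors came from the 6 columns together. All 6 lines are lowest in the treated hepatocyte columns and dip in acetaminophen liver; mir-23a and mir-23b overlie each other.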

How the data were processed

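Small RNA of 24 samples (4 materials, 3 treatments, PGM and Proton instruments) was extracted with a Norgen kit, and the labels' protocols name the Ion Total RNA-Seq Kit v2 for the libraries. The authors deposited estimated counts (expected counts) for mature microRNAs and for hairpins, unscaled, in 12 columns, 1 per condition, per the file headers. Not given in the sources used here are the aligner, the genome build and the rule that divided reads among several microRNAs. Equal values of both mature rows are what an even division would give, but that rule was not tested.

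Counts were scaled within hepatocytes and within liver by TMM factors (edgeR 4.0.16, R 4.3.3) after keeping microRNAs with at least 10 counts in 1 of the 3 columns. For the most alike profiles and for hepatocytes against liver, TMM factors came from the 6 columns together. Exosome columns, too shallow for such factors, were described by shares. Ratios carry exact conditional (Clopper-Pearson) 95% intervals and shares carry Wilson 95% intervals, and a count of 0 was given a floor of 3. Counts were rounded for the edgeR quasi-likelihood test of hepatocytes against liver, with treatment as a term, 10 counts or more in 3 or more of the 6 columns and Benjamini-Hochberg adjustment over all features tested. DESeq2 1.42.0 served for alternatives. The fold rule and the edgeR test were also run on simulated counts. The fold-rule simulation held counting error alone and used column totals, so it could not check the TMM-scaled calls. Sequences are from RefSeq and host introns from the GENCODE annotation of GRCm38. Named microRNAs were the members, their 5p arms, miR-122-5p, 2 lists and the 5 most alike profiles per table. Members and lists were chosen with earlier results of these data known. The alternatives were other scalings, no low-count filter, the hairpin table, single rows, serum groups from the titles, other correlations and leaving out each treatment.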

Additional observations from a re-analysis of the deposited data

Results flagged for a closer look

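The ratio of the summed hairpin rows for acetaminophen plus G-CSF against acetaminophen lay on opposite sides of equality in the 2 materials. The log2 fold of their sum was -0.61 in hepatocytes, a ratio of 0.657 that did not reach 2-fold, and 1.47 in liver, a ratio of 2.78 that was called. Each material had 1 column per treatment, and the difference between the materials was not tested. In hepatocytes the mature pair, on 11 and 10 counts, had a log2 fold of 0.49 with an interval that included equality, so the mature and hairpin values there do not share a sign. Since the hairpin rows are no separate measure of precursors, that difference in sign says nothing about precursors.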

How the results depend on the processing

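The direction of the pair was kept under all alternatives tried in 5 of the 6 comparisons within a material; in acetaminophen plus G-CSF against acetaminophen in hepatocytes, not called, it turned to -0.61 with the hairpin table. The log2 fold ran from -3.73 to -2.79 for acetaminophen against control in hepatocytes and from -2.85 to -2.34 in liver. For acetaminophen plus G-CSF against control in hepatocytes the hairpin table gave -4.15. For the same treatments in liver the pair gave -0.67 with column totals and -1.02 with 4 leading microRNAs left out of scaling. Acetaminophen plus G-CSF against acetaminophen in liver gave 2.08 with column totals, 2.04 with no low-count filter, 1.48 with the leading microRNAs left out and 1.47 with hairpins. The number of microRNAs called stayed within 1.5 times in 18 of 18 alternatives.

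For hepatocytes against liver, 14 mature microRNAs were called, against 33 with the DESeq2 Wald test and 9 with no low-count filter, and between 0 and 33 when each treatment was left out. The 0 arose without acetaminophen plus G-CSF (11 at an unadjusted p under 0.05) and without acetaminophen (19). Hairpin calls numbered 13, against 90 with the DESeq2 Wald test, 46 with DESeq2 size factors, 22 with no low-count filter and 34 with no treatment term, and between 0 and 87 with a treatment left out (34 unadjusted at the 0). The log2 fold of mir-107 then ran from -2.70 to -1.06. The cause was not tested. With the 4 leading microRNAs left out of the total, the pair's share was 3.75% in control hepatocytes (1.77% with them), 0.644% in control serum exosomes (0.276%), 1.21% in acetaminophen liver (0.660%) and 0.444% in acetaminophen plus G-CSF hepatocytes (0.247%); shares of 0 stayed at 0. No paired analysis was possible because each condition has 1 combined column.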
